A study of Homo sapiens with 18 samples.

Results

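The 79 genes described here encode proteins of the mitochondrial ribosome. They were taken as the protein-coding genes whose symbol is MRPL or MRPS, a number and at most 1 letter from A to C, plus DAP3, a small subunit protein without such a symbol. They are 79 of the 60483 gene identifiers counted, and all 79 were among the 16122 genes that passed the filter on low counts. The genes were read by RNA sequencing of 18 libraries of the human cell line HAIR-M, labelled as marginal zone lymphoma (MZL), a B cell cancer. The 3 copanlisib groups were exposed for 4, 8 or 12 h to copanlisib at 5 nM, which inhibits phosphoinositide 3-kinases (PI3K), and the 3 DMSO groups received the solvent DMSO for the same times. Each group has 3 libraries, all groups share the 1 cell line, and each copanlisib group is set against the DMSO group of its time. Nothing in the labels ties replicates to separate cultures, so p-values measure the spread between these libraries, which may be technical.

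The mitochondrial ribosome has a large and a small subunit and translates the few mRNAs of the mitochondrial genome, which encode core subunits of the respiratory chain and the ATP synthase. Its rRNAs are transcribed inside the organelle, whereas its proteins are encoded in the nucleus, made on cytosolic ribosomes and imported. Many of these proteins have a counterpart in bacterial ribosomes and others are found only in mitochondria. By this division the set holds 30 large subunit genes with a bacterial counterpart and 21 without, and 16 small subunit genes with a counterpart and 11 without. MRPS36 has an MRP symbol but is now known as an adaptor of the 2-oxoglutarate dehydrogenase complex. MRPS30 and MRPS18A have MRPS symbols but are large subunit proteins, and are counted there. Of the related genes MRPS18A, MRPS18B and MRPS18C, only MRPS18C is counted with a bacterial counterpart, and the others as mitochondria-specific.

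Promoter windows from RefSeq (GRCh38.p14, 250 bases before to 50 after a start) were matched by symbol for 70 of the 79 genes, 12 of them with more than 1 window. Motifs were searched on both strands of each whole window. The letters CCGGAAG, which ETS factors such as GABPA bind, stood in 37.9% of the 87 windows of these genes and in 12.8% of 22199 windows of protein-coding genes. AAGATGGCG, bound by YY1, stood in 14.9% against 2.41%, and GCGCANGCG, bound by NRF1, in 17.2% against 9.64%. The E-box CACGTG, bound by MYC with MAX, stood in 10.3% against 8.34%. The GC box GGGCGG stood in 60.9% against 56.3%, the TATA box TATAAA in 3.45% against 9.47%, and TGACGTCA in 1.15% against 2.26%. A match describes letters in a window and is no test of binding.

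The bases before the start are shown for 5 genes: MRPL17, MRPS12 and MRPL3 for their low values with copanlisib described below, MRPL20 as the most abundant gene per length, and MRPL30 as one of the genes called higher. They are 180 bases at chr11:6683341-6683520 on the minus strand for MRPL17, 190 at chr19:38930754-38930943 on the plus strand for MRPS12, 50 at chr3:131502972-131503021 on the minus strand for MRPL3, 230 at chr1:1407294-1407523 on the minus strand for MRPL20, and 160 at chr2:99181024-99181183 on the plus strand for MRPL30. Each is read 5′ to 3′ and ends at the base before the start, and capitals mark the letters of any motif above on either strand. Bases after the start are not shown, nor are other windows of a gene. MRPS12 has 2 windows and counts below as a gene with the ETS letters, which lie outside the bases shown. MRPL17 holds 3 NRF1 matches, of which those at 81 and 80 bases before the start overlap. MRPL20 holds 2 ETS matches, at 44 and 21 bases before the start, and MRPL3 holds 1, at 32 bases.
MRPL17: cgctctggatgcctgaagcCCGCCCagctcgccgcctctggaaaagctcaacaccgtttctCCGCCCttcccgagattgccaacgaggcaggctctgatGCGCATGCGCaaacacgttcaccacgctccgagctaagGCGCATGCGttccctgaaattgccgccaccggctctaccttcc
MRPS12: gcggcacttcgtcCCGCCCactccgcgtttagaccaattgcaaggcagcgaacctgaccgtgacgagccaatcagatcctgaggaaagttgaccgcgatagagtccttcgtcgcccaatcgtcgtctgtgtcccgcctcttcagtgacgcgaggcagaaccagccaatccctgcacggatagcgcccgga
MRPL3: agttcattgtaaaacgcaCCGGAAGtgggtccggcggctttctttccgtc
MRPL20: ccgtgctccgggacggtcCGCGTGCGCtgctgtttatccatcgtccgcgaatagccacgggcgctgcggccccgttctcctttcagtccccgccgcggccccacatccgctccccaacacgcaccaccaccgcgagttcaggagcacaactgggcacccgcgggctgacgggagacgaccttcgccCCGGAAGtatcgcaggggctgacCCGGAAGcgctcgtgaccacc
MRPL30: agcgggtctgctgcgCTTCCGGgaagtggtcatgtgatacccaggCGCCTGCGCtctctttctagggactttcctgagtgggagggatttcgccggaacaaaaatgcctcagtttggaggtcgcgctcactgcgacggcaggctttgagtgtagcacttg

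Each library held between 13587017 and 25566761 gene reads. At 4 h, copanlisib replicates 1 and 2 differed from the rest: 8.73% and 5.22% of their reads were unmapped, against 1.74% to 2.82% in the other 16 libraries, and the mitochondrial genome held 12.4% and 12.6% of their gene reads, against 9.07% to 10.5%. Most 4 h counts of calls, and most 4 h calls of named genes, are therefore also given with those 2 libraries left out. Copanlisib replicate 3 then stands alone at that time (written below as with replicate 3 only). All 8 B cell markers were tested and summed, in CPM (reads scaled to a common library total), to 4106 to 5462 CPM in copanlisib libraries and 4433 to 4825 CPM in DMSO libraries. Of 10 markers of retina, a tissue that the labels' protocols mention, 1 was tested, with sums of 6.59 to 10.6 CPM in copanlisib libraries and 5.93 to 8 CPM in DMSO libraries. T and NK cell markers (2 of 8 tested) summed to 12 to 17.3 CPM in copanlisib libraries and 15 to 20.2 CPM in DMSO libraries, and myeloid markers (3 of 7) to 4.82 to 11.2 CPM in copanlisib libraries and 5.62 to 9.47 CPM in DMSO libraries. Markers of stroma and epithelium (6 of 8 tested) summed to 56.2 to 82 CPM in copanlisib libraries and 52.6 to 62.5 CPM in DMSO libraries, with KRT18 the highest. Their part in the results was not tested.

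Per transcript length, the 79 genes had a median of 61.8 TPM (a read count divided by transcript length and scaled to a fixed total) in DMSO libraries. The median of 85 tested cytosolic ribosomal protein genes was 1664 TPM on the same scale. The highest were MRPL20 at 228 ± 7.09 TPM (SD over the 9 DMSO libraries), MRPL4, which lines the exit tunnel of the large subunit, at 220 ± 6.98, and MRPL42, a mitochondria-specific large subunit protein, at 166 ± 5.54. MRPL20 and MRPL4 lie within their spread of each other. The lowest were MRPL53 at 4.66 ± 1.02 TPM, MRPL38 at 2.32 ± 0.423 and MRPS24 at 1.34 ± 0.751. These had 38 to 80, 22 to 62 and 2 to 16 reads per library, and each shares its strand with an overlapping gene, such as URGCP-MRPS24, so their counts are uncertain. MRPS24 had log2 fold changes of −0.49, −0.47 and −0.83 with copanlisib at the 3 times, none of them called. In all, 17 of the 79 genes have such an overlap, among them MRPL12, MRPL30, MRPL46 and MRPS16, whose calls are described below. Pseudogenes named after them exist for 37 of the 79 genes, 80 in total.

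Transcripts of the mitochondrial ribosome were lower with copanlisib than with DMSO at each time, by small amounts spread over many genes. At 4 h, 28 of the 79 genes fell (35.4%) and 2 rose (2.53%), where 20.7% of all tested genes fell and 17.7% rose. At 8 h, 33 fell (41.8%) and 1 rose (1.27%), against 18.3% and 14.8% of all tested genes. At 12 h, 24 fell (30.4%) and 1 rose (1.27%), against 16.5% and 13.8%. At 12 h the number that fell was 15 without copanlisib replicate 3 of 12 h and 14 without DMSO replicate 3 of 12 h, against 13.3% and 13.6% of all genes tested in those fits. At 4 h, with replicate 3 as the only copanlisib library, 21 fell (26.6%) and 0 rose, against 13.4% and 8.86% of all genes tested in that fit. Without that replicate 7 rose, against 23%. A gene counts as fallen or risen here at an edgeR adjusted p under 0.05. The median log2 fold change of the 79 genes was −0.10 at 4 h, −0.16 at 8 h and −0.12 at 12 h, while that of all tested genes was 0.0095, 0.015 and 0.0044. Averaged over the 3 times, 48 genes fell and 3 rose, against 25.6% and 24.5% of all tested genes, with a median of −0.15. In bulk samples fewer cells of a type and less RNA per cell cannot be told apart, and all values are shares of a library's reads.

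**Figure D1:**
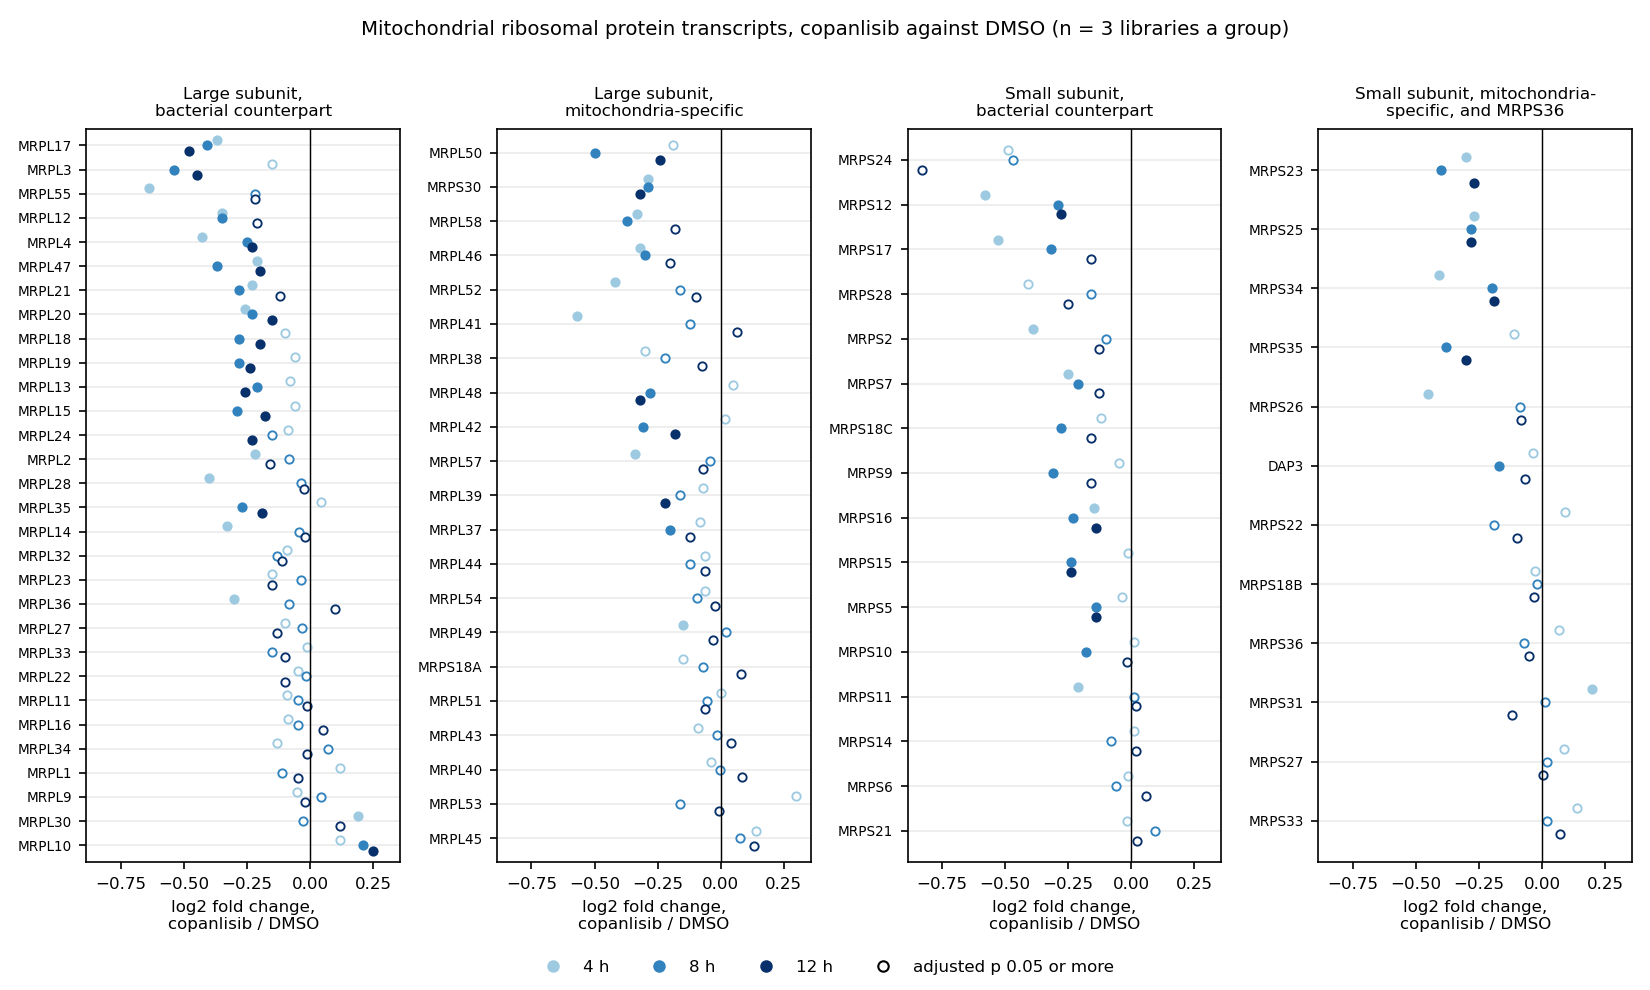
Log2 fold change of copanlisib against DMSO (horizontal axis) for each of the 79 genes (rows, 4 panels by subunit and bacterial counterpart) at 4, 8 and 12 h, with 3 libraries a group. Filled points passed an adjusted p of 0.05 and open points did not, most points lie left of 0, and MRPL10, MRPL30 and MRPS31 hold the filled points to the right.

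All 3 copanlisib libraries lay below all 3 DMSO libraries for 30 of the 79 genes at 4 h, 43 at 8 h and 33 at 12 h, against 19.9%, 26.2% and 24.1% of all tested genes. Summed over the 79 genes, the copanlisib libraries held 3509, 3601 and 3530 CPM at 4 h, against 3966, 3793 and 4027 in DMSO libraries. At 8 h the copanlisib libraries held 3616, 3628 and 3523 CPM, against 4078, 3961 and 3996 in DMSO libraries. At each time, 12 h included, every copanlisib sum lay below every DMSO sum. The copanlisib sums at 12 h were 3819, 3676 and 3647 CPM, against 4004, 3912 and 4181 in DMSO libraries. As a mean share of gene reads, the set made up 0.351%, 0.37% and 0.375% with copanlisib at 4, 8 and 12 h, against 0.382%, 0.401% and 0.401% with DMSO.

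**Figure D2:**
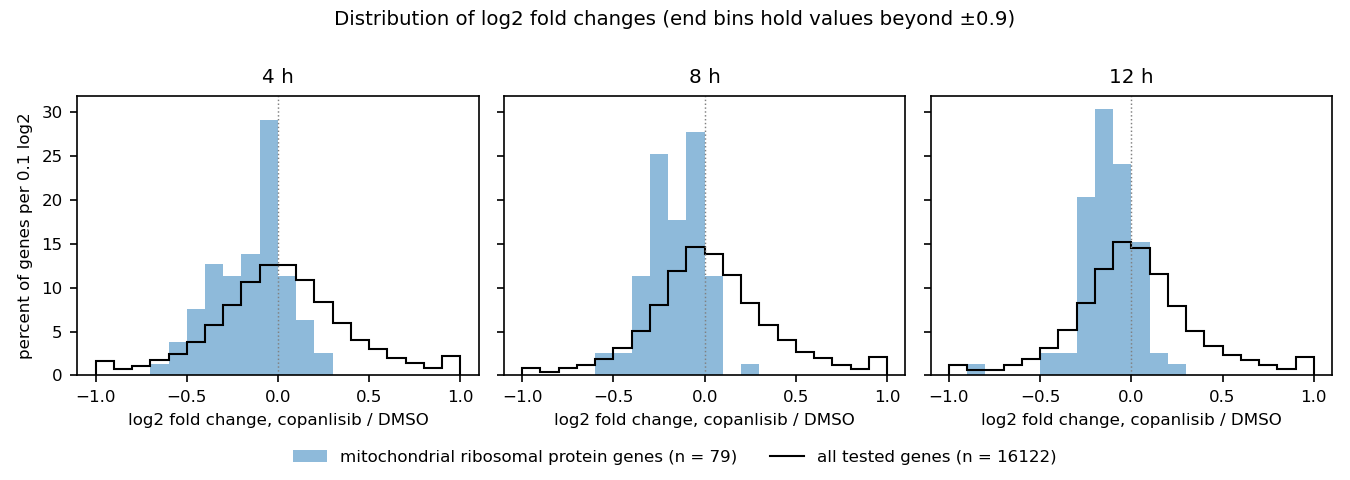
Percent of genes (vertical axis) in each bin of log2 fold change, copanlisib over DMSO (horizontal axis), at 4, 8 and 12 h, for the 79 mitochondrial ribosomal protein genes and for all 16122 tested genes. The 79 genes centre below 0, with medians of −0.10, −0.16 and −0.12.

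Over the 3 times, 47 of the 79 genes fell at 1 or more, where 31.2% of all tested genes did, and 3 rose at 1 or more, where 29% did. At all 3 times 10 genes fell, against 8.32% of all tested genes: MRPL4, MRPL17, MRPL20, MRPL47, MRPS12, MRPS16, MRPS23, MRPS25, MRPS30 and MRPS34. With replicate 3 as the only copanlisib library at 4 h, 15 genes fell at all 3 times, against 9.47% of all genes tested in that fit, among them 9 of these 10. The exception was MRPS16, at −0.14 in that fit at 4 h (adjusted p = 0.098). A further 12 genes fell at 8 and 12 h and not at 4 h, against 4.58% of all tested genes, and 6 at 4 and 8 h and not at 12 h, against 1.77%. At 4 h alone 12 fell, against 9.3%, at 8 h alone 5, against 3.59%, and at 12 h alone 2, against 2.33%. These time patterns hold all 3 copanlisib libraries at 4 h and depend on them. At 4 h MRPL13, one of the 12 at 8 and 12 h, was at −0.078 with all libraries and −0.23 with replicate 3 only. DAP3, of the 5 at 8 h alone, was at −0.037 and −0.16. MRPL14, of the 12 at 4 h alone, was at −0.33 and −0.21.

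Both subunits held genes that fell. The counts with all libraries stand beside 20.7%, 18.3% and 16.5% of all tested genes that fell at 4, 8 and 12 h. Over all tested genes, 17.7%, 14.8% and 13.8% rose. Of the 51 large subunit genes, 18 fell and 1 rose at 4 h, 19 fell and 1 rose at 8 h, and 16 fell and 1 rose at 12 h (median log2 fold changes −0.10, −0.15 and −0.11). Of the 27 small subunit genes, 10 fell and 1 rose at 4 h, 14 fell and 0 rose at 8 h, and 8 fell and 0 rose at 12 h (median log2 fold changes −0.11, −0.18 and −0.13). Of the 46 genes with a bacterial counterpart, 17 fell and 1 rose at 4 h, 21 fell and 1 rose at 8 h, and 15 fell and 1 rose at 12 h (median log2 fold changes −0.11, −0.16 and −0.14). Of the 32 mitochondria-specific genes, 11 fell and 1 rose at 4 h, 12 fell and 0 rose at 8 h, and 9 fell and 0 rose at 12 h (median log2 fold changes −0.087, −0.16 and −0.078). At 4 h with replicate 3 only, 11 large subunit genes fell (median −0.15), 10 small subunit genes (−0.16), 14 with a bacterial counterpart (−0.16) and 7 mitochondria-specific ones (−0.11), and 0 rose. The difference between these groups was not tested.

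Among large subunit proteins with a bacterial counterpart, MRPL17 had the lowest mean over the 3 times of all genes in the set with at least 20 reads in every library, at −0.42. It stood at 58.7, 55.7 and 60.2 CPM in copanlisib libraries, against 74.4, 73.3 and 77.2 in DMSO libraries at 4 h. At 8 h it stood at 51.6, 51.4 and 53.3 CPM in copanlisib libraries, against 70.9, 67.3 and 69.3 in DMSO libraries, and at 12 h at 56.5, 53.8 and 53.6 CPM in copanlisib libraries, against 73.5, 74.1 and 80.9 in DMSO libraries. The groups did not overlap at any time. The log2 fold changes were −0.37 ± 0.052 at 4 h (SE, edgeR adjusted p = 3.4e-06), −0.41 ± 0.052 at 8 h (7.3e-07) and −0.48 ± 0.052 at 12 h (7.1e-08). With replicate 3 only, the 4 h value was −0.31 (adjusted p = 0.00024).

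MRPL3, a large subunit protein that reaches towards the peptidyl transferase centre, had the lowest log2 fold change of the set at 8 h. It stood at 71.9, 75.9 and 72.4 CPM in copanlisib libraries, against 106, 109 and 105 in DMSO libraries at 8 h (−0.54 ± 0.069, adjusted p = 6.7e-07). At 12 h it stood at 67.9, 64.4 and 64.6 CPM in copanlisib libraries, against 89.9, 85.6 and 92.9 in DMSO libraries (−0.45 ± 0.07, adjusted p = 1.9e-05). Neither time had an overlap between the groups. At 4 h it stood at 90.7, 83.8 and 66.6 CPM in copanlisib libraries, against 91, 89 and 88.6 in DMSO libraries, with an overlap and no call (−0.15 ± 0.069, adjusted p = 0.083). Copanlisib replicate 3 was the low library there, and with it as the only one the log2 fold change was −0.42 (adjusted p = 5.1e-07).

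MRPL4 stood at 102, 112 and 141 CPM in copanlisib libraries, against 157, 157 and 164 in DMSO libraries at 4 h, without overlap and with copanlisib replicate 3 the highest of its group. It fell by 0.43 ± 0.07 at 4 h (adjusted p = 2.1e-05; with replicate 3 only, −0.18, 0.014; with a correction for GC content, −0.14, 0.0023), by 0.25 ± 0.069 at 8 h (0.0056) and by 0.23 ± 0.069 at 12 h (0.014). The 12 h call ended without copanlisib replicate 2 (adjusted p = 0.05 after rounding), copanlisib replicate 3 (0.063) or DMSO replicate 3 (0.083). MRPL20 fell by 0.26 ± 0.051 at 4 h, 0.23 ± 0.051 at 8 h and 0.15 ± 0.051 at 12 h (adjusted p = 0.00021, 0.001 and 0.026). Its 4 h value was −0.30 with replicate 3 only (0.00028). Its 12 h call ended without the filter on low counts (0.081), without copanlisib replicate 2 or 3 (0.11 and 0.081) or DMSO replicate 1 or 3 (0.063 and 0.11). MRPL47, a protein near the exit of the tunnel, fell by 0.21 ± 0.061, 0.37 ± 0.06 and 0.20 ± 0.061 at the 3 times (adjusted p = 0.0086, 2.5e-05 and 0.014). The 4 h value of MRPL47 was −0.32 with replicate 3 only (0.0013), and with the 6 libraries of 4 h alone the call ended (0.063). Its 12 h call ended with the GC correction (−0.11, adjusted p = 0.092), without copanlisib replicate 3 (0.077) and without DMSO replicate 3 (0.054).

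MRPL55, counterpart of a bacterial protein at the junction of the subunits, stood at 19.3, 22.1 and 27.9 CPM in copanlisib libraries, against 35.4, 33.9 and 38 in DMSO libraries at 4 h, without overlap. Its log2 fold change of −0.64 ± 0.091 (adjusted p = 4e-06) was the lowest of the set at 4 h, and was −0.36 with replicate 3 only (0.0018) and −0.41 with the GC correction (1e-06). At 8 and 12 h it was at −0.22 and −0.22 without a call (adjusted p = 0.053 and 0.073), though the groups did not overlap. The copanlisib libraries held 29.1, 26.4 and 27.2 CPM at 8 h, against 33.1, 31.2 and 32.1 in DMSO libraries. At 12 h they held 27.4, 28.7 and 26.2 CPM, against 31.4, 29.2 and 34.8 in DMSO libraries. MRPL36 fell by 0.30 ± 0.068 at 4 h alone (adjusted p = 0.00098), and with replicate 3 only was at −0.16 without a call (0.15).

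The stalks of the large subunit, where translation factors and leaving tRNAs make contact, held genes called in both directions. MRPL12, the L7/L12-type stalk protein that also binds mitochondrial RNA polymerase, stood at 26.3, 27.6 and 26.4 CPM in copanlisib libraries, against 34.7, 32.5 and 35.5 in DMSO libraries at 8 h. The groups did not overlap, and it fell by 0.35 ± 0.084 (adjusted p = 0.0017). At 4 h it fell by 0.35 ± 0.085 (0.002), but was at −0.20 with replicate 3 only (0.13) and at −0.039 with the GC correction (0.7), both without a call. At 12 h it was at −0.21 ± 0.085 without a call (0.06). MRPL10, which anchors that stalk, stood at 55.5, 57.8 and 57.9 CPM in copanlisib libraries, against 49.6, 47.6 and 51 in DMSO libraries at 8 h. At 12 h it stood at 55.5, 53.6 and 55.1 CPM in copanlisib libraries, against 43.5, 46 and 48.8 in DMSO libraries, again without overlap. MRPL10 rose by 0.21 ± 0.054 at 8 h (adjusted p = 0.0037) and by 0.25 ± 0.055 at 12 h (0.001), and was at 0.12 ± 0.054 without a call at 4 h (0.09). With the GC correction its 4 h value was 0.17 and was called higher (edgeR adjusted p = 0.0029). The 4 h value with replicate 3 only was 0.15. MRPL11, at the base of the same stalk, was at −0.092, −0.049 and −0.012, and MRPL1, of the L1 stalk, at 0.12, −0.11 and −0.049 at the 3 times, with no call for either. At 4 h MRPL1 was at −0.19 with replicate 3 only and at 0.012 with the GC correction.

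**Figure D3:**
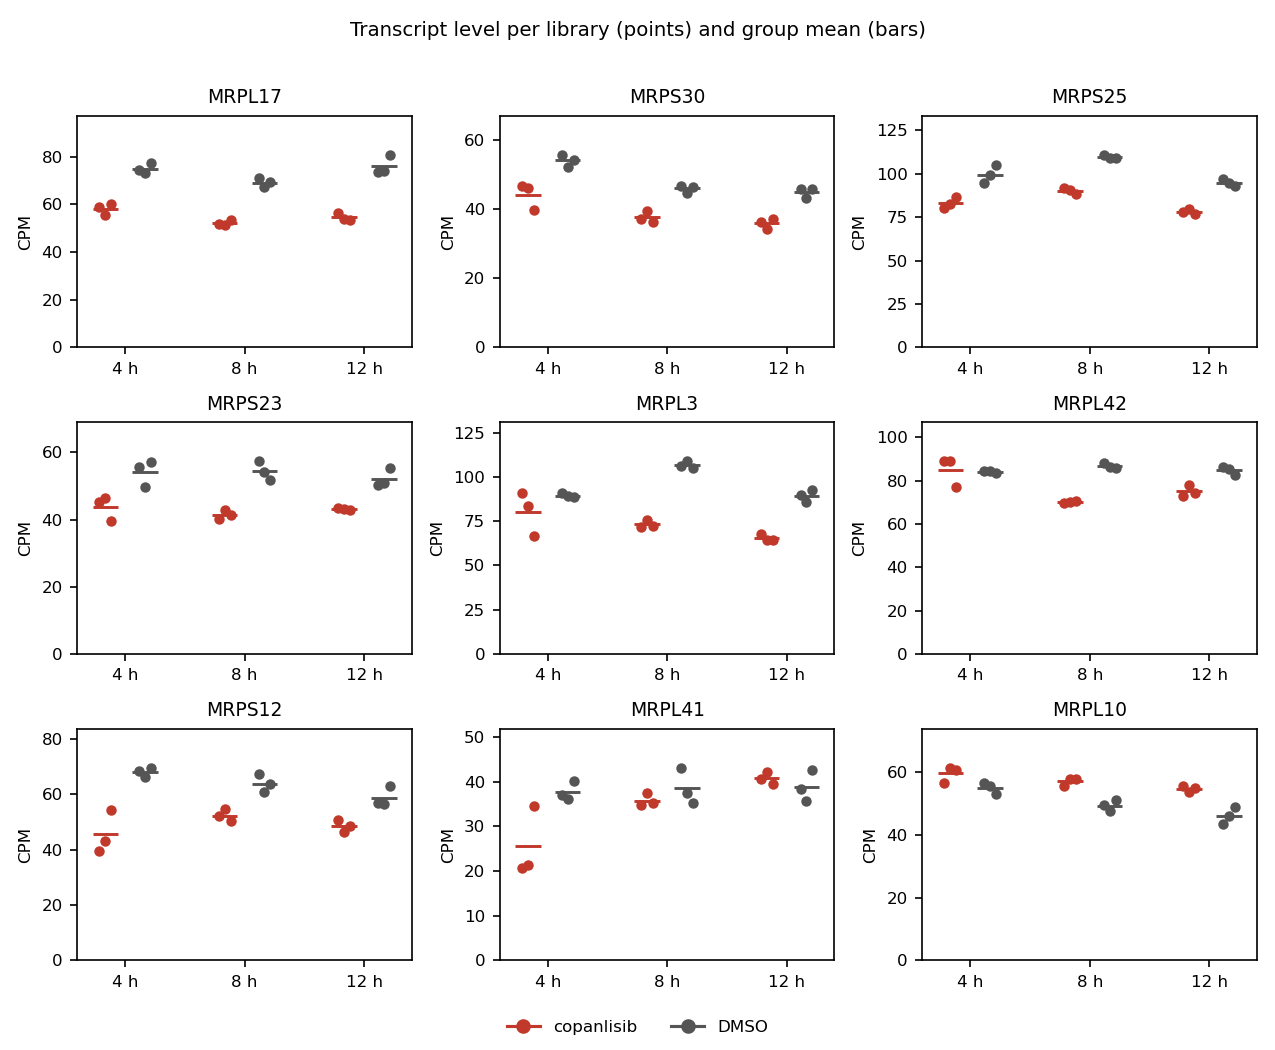
CPM in each library (points, vertical axis) and group mean (bars) for 9 genes at 4, 8 and 12 h, copanlisib left of DMSO at each time. MRPL17, MRPS30, MRPS25 and MRPS23 are lower with copanlisib at all 3 times and MRPL3 and MRPL42 at 8 and 12 h, while MRPL10 is higher at 8 and 12 h.

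Among mitochondria-specific large subunit proteins, MRPS30 fell at all 3 times. It stood at 46.9, 46.1 and 39.9 CPM in copanlisib libraries, against 55.9, 52.4 and 54.4 in DMSO libraries at 4 h. At 8 h it stood at 37.3, 39.4 and 36.4 CPM in copanlisib libraries, against 46.9, 44.9 and 46.5 in DMSO libraries, and at 12 h at 36.4, 34.4 and 37.3 CPM in copanlisib libraries, against 45.8, 43.3 and 45.9 in DMSO libraries, with no overlap at any time. The log2 fold changes were −0.29 ± 0.061, −0.29 ± 0.061 and −0.32 ± 0.063 (adjusted p = 0.00045, 0.00054 and 0.00029), and the 4 h value was −0.44 with replicate 3 only (5.5e-06). MRPL50 stood at 17.2, 18.6 and 21.2 CPM in copanlisib libraries, against 26.7, 27.8 and 26.5 in DMSO libraries at 8 h (−0.50 ± 0.086, adjusted p = 5.2e-05), without overlap. It fell by 0.24 ± 0.09 at 12 h (0.041). That call ended without any 1 of copanlisib replicates 1, 2 and 3 of that time (adjusted p = 0.053, 0.087 and 0.14) or without DMSO replicate 1 or 3 (0.095 and 0.17), and with the GC correction (−0.14, 0.18). At 4 h MRPL50 was at −0.19 without a call (0.075), and at −0.42 with replicate 3 only (0.0008).

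MRPL42 stood at 69.7, 69.9 and 70.6 CPM in copanlisib libraries, against 88.3, 86.3 and 85.8 in DMSO libraries at 8 h, without overlap (−0.31 ± 0.052, adjusted p = 3.5e-05). With the GC correction the 8 h value was −0.18 (0.00029). It fell by 0.18 at 12 h (0.011; without copanlisib replicate 1 of that time 0.052; with the GC correction −0.074, 0.15) and was at 0.016 without a call at 4 h (0.84). MRPL48 fell by 0.28 ± 0.087 at 8 h and 0.32 ± 0.087 at 12 h (adjusted p = 0.014 and 0.0053), and its 8 h call ended without copanlisib replicate 3 (0.067) or DMSO replicate 2 (0.07). MRPL58, a peptidyl-tRNA hydrolase built into the ribosome, stood at 14.9, 13.7 and 13.9 CPM in copanlisib libraries, against 19.2, 17.5 and 17.8 in DMSO libraries at 8 h, without overlap. It fell by 0.37 ± 0.079 at 8 h (adjusted p = 0.00062) and by 0.33 ± 0.079 at 4 h (0.0016), where replicate 3 only gave −0.23 without a call (0.12). MRPL41 stood at 20.7, 21.3 and 34.7 CPM in copanlisib libraries, against 37.1, 36.1 and 40.3 in DMSO libraries at 4 h, where copanlisib replicates 1 and 2 were the low libraries. It fell by 0.57 ± 0.12 at 4 h alone (adjusted p = 0.0005), and was at −0.12 with replicate 3 only (0.36) and at −0.12 with the GC correction (0.13).

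MRPL37 fell by 0.20 ± 0.048 at 8 h alone (adjusted p = 0.002). MRPL39 fell by 0.22 ± 0.068 at 12 h alone (0.017), a call that ended without copanlisib replicate 3 (0.13) or DMSO replicate 2 or 3 (0.053 and 0.063). MRPL44, which has the fold of RNase III enzymes, was at −0.064, −0.12 and −0.061, and MRPL45, which sits at the tunnel exit facing the inner membrane, at 0.14, 0.077 and 0.13, with no call at any time. Averaged over the 3 times, MRPL44 fell by 0.081 (adjusted p = 0.016) and MRPL45 rose by 0.12 (0.016).

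In the small subunit, MRPS12, a protein of the decoding centre, fell at all 3 times. It stood at 39.5, 43.2 and 54.3 CPM in copanlisib libraries, against 68.4, 66.1 and 69.6 in DMSO libraries at 4 h. At 8 h it stood at 52.1, 54.6 and 50.2 CPM in copanlisib libraries, against 67.2, 60.8 and 63.5 in DMSO libraries, and at 12 h at 50.6, 46.2 and 48.5 CPM in copanlisib libraries, against 56.7, 56.6 and 62.8 in DMSO libraries. The groups did not overlap, and at 4 h copanlisib replicates 1 and 2 lay lowest. The log2 fold changes were −0.58 ± 0.078 (adjusted p = 1.7e-06; with replicate 3 only, −0.32, 0.00048; with the GC correction, −0.35, 8.7e-08), −0.29 ± 0.077 (0.0044) and −0.28 ± 0.079 (0.0082). Without DMSO replicate 3 the 12 h call ended (adjusted p = 0.061). MRPS17 stood at 8.05, 9.45 and 7.71 CPM in copanlisib libraries, against 12.4, 11.4 and 12.6 in DMSO libraries at 4 h, without overlap (−0.53 ± 0.10, adjusted p = 0.00022). The value was −0.65 with replicate 3 only (0.00043). It fell by 0.32 at 8 h (0.033), a call that ended in DESeq2 (0.057), without the filter on low counts (0.083) and without copanlisib replicate 2 or 3 (0.12 and 0.073) or DMSO replicate 1 or 3 (0.1 and 0.12). An overlapping gene on its strand, NIPSNAP2, makes its count uncertain.

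Among mitochondria-specific small subunit proteins, MRPS23, MRPS25 and MRPS34 fell at all 3 times. MRPS23 stood at 40.3, 42.8 and 41.2 CPM in copanlisib libraries, against 57.4, 54 and 51.8 in DMSO libraries at 8 h, and its log2 fold changes were −0.30 ± 0.065, −0.40 ± 0.065 and −0.27 ± 0.066 (adjusted p = 0.00057, 2.6e-05 and 0.0022), without overlap at any time. MRPS25 stood at 92, 90.6 and 88.1 CPM in copanlisib libraries, against 111, 109 and 109 in DMSO libraries at 8 h, and its values were −0.27 ± 0.048, −0.28 ± 0.047 and −0.28 ± 0.048 (adjusted p = 8.3e-05, 3.5e-05 and 6.3e-05), also without overlap. MRPS34 fell by 0.41 ± 0.072, 0.20 ± 0.071 and 0.19 ± 0.071 (adjusted p = 5.7e-05, 0.031 and 0.042). With the GC correction its 4 h value was −0.10 without a call (0.14). The 4 h values with replicate 3 only were −0.45 for MRPS23, −0.20 for MRPS25 and −0.21 for MRPS34 (adjusted p = 1.2e-05, 0.0097 and 0.026). The 8 h call of MRPS34 ended without copanlisib replicate 2 (adjusted p = 0.16) or any 1 of DMSO replicates 1, 2 and 3 (0.15, 0.052 and 0.055). Its 12 h call ended without copanlisib replicate 2 or 3 of 12 h (0.16 and 0.16), DMSO replicate 1 or 3 of 12 h (0.13 and 0.14), copanlisib replicate 2 of 8 h (0.053) or DMSO replicate 1 of 8 h (0.054).

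MRPS35 stood at 50.5, 48.6 and 50.8 CPM in copanlisib libraries, against 64.4, 66.4 and 64.8 in DMSO libraries at 8 h, without overlap. It fell by 0.38 ± 0.067 at 8 h (adjusted p = 6.3e-05) and 0.30 ± 0.068 at 12 h (0.0014), and at 4 h was at −0.11 without a call (0.21), or −0.27 with replicate 3 only (0.0051). MRPS26 fell by 0.45 ± 0.085 at 4 h alone (0.00012), and was at −0.21 with replicate 3 only (0.066) and −0.18 with the GC correction (0.011). DAP3, a GTP-binding protein of the small subunit head, fell by 0.17 ± 0.053 at 8 h (adjusted p = 0.017). This call ended without copanlisib replicate 1 or 2 (0.068, and 0.05 after rounding) or DMSO replicate 1 or 3 (0.094 and 0.092). At 4 h DAP3 was at −0.037 without a call (0.63), and at −0.16 with replicate 3 only. MRPS22 was at 0.091, −0.19 and −0.10, the pentatricopeptide repeat protein gene MRPS27 at 0.089, 0.018 and 0.0023, and the dehydrogenase adaptor MRPS36 at 0.067, −0.07 and −0.052, none of them called at any time. Of the 3 paralogues that descend from bacterial S18, MRPS18C fell by 0.28 ± 0.073 at 8 h alone (adjusted p = 0.0038; with counts without strand 0.074; with the GC correction −0.17, 0.048), while MRPS18A, at −0.15, −0.069 and 0.081, and MRPS18B, at −0.027, −0.021 and −0.03, were not called.

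Besides MRPL10, 2 genes were called higher at a single time, both at 4 h. MRPL30 stood at 28, 29.6 and 29.3 CPM in copanlisib libraries, against 26, 24.3 and 26.2 in DMSO libraries at 4 h (0.19 ± 0.063, adjusted p = 0.022). The groups did not overlap, but the call ended without copanlisib replicate 2 (0.08), without DMSO replicate 2 (0.095) and with replicate 3 only (0.21, 0.074). It also ended with the GC correction (0.10, 0.24), without the filter on low counts (0.079) and with the 6 libraries of 4 h alone (0.13). MRPS31 stood at 31.6, 31.2 and 26.6 CPM in copanlisib libraries, against 25.9, 24.6 and 27.2 in DMSO libraries, with copanlisib replicate 3 inside the DMSO range (0.20 ± 0.071, adjusted p = 0.024). With replicate 3 only it was at 0.045 (0.78), with the GC correction at 0.10 (0.19) and with the 6 libraries of 4 h alone the adjusted p was 0.13. In addition, the call ended without copanlisib replicate 1 or 2 (0.14 and 0.11) or DMSO replicate 1 or 2 (0.053 and 0.1).

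At 4 h the values followed the GC content of the transcripts. With all tested genes split by GC content into 5 bins of near equal size, from low to high, the median log2 fold changes of all tested genes were 0.13, 0.10, 0.046, −0.047 and −0.21, and those of the 11, 16, 20, 18 and 14 mitochondrial ribosomal protein genes in these bins were 0.01, −0.062, −0.13, −0.10 and −0.39. In each bin the median of these genes lay below that of all genes. With replicate 3 only, the medians of all tested genes lay between −0.034 and 0.022, and those of the mitochondrial ribosomal protein genes were −0.12, −0.17, −0.15, −0.062 and −0.19. In that fit 21 of the 79 genes fell at 4 h and 0 rose by edgeR, with 2 above 0 at an unadjusted p under 0.05 and a median of −0.15, and 15 of the 21 are among the 28 that fell with all libraries. At 8 h the medians over the bins were −0.083, −0.035, 0.024, 0.067 and 0.10 for all tested genes and −0.27, −0.19, −0.13, −0.11 and −0.11 for the mitochondrial ribosomal protein genes, again lower in each bin.

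**Figure D4:**
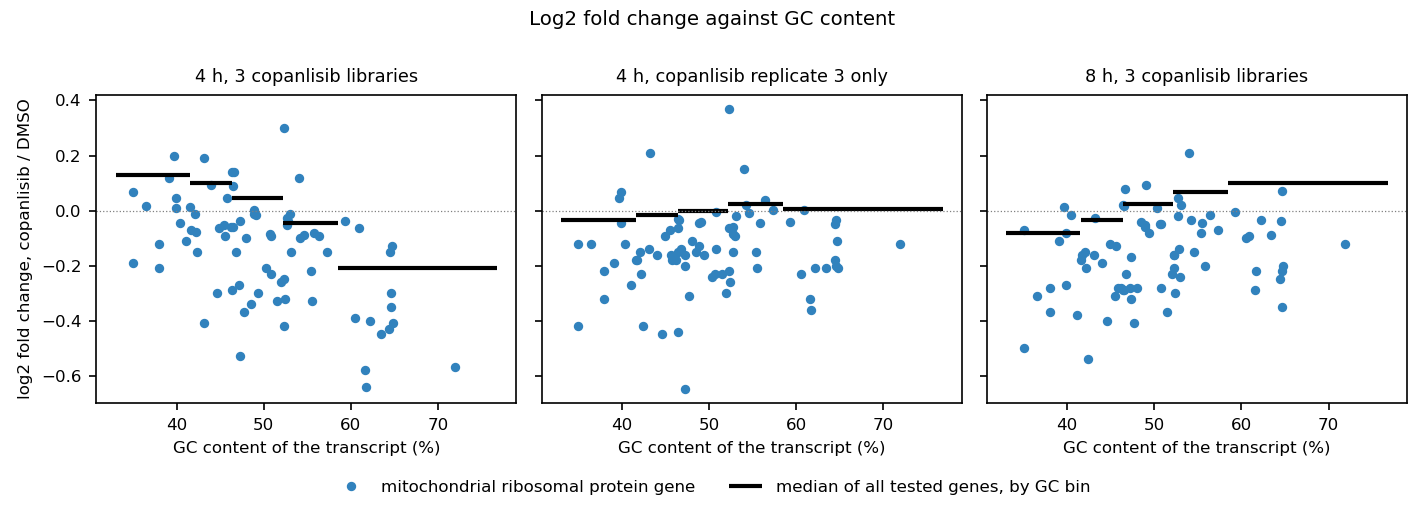
Log2 fold change of copanlisib against DMSO (vertical axis) against the GC content of the transcript in percent (horizontal axis) at 4 h with all 3 copanlisib libraries, at 4 h with replicate 3 only, and at 8 h. Points are the mitochondrial ribosomal protein genes except MRPS24, which has 2 to 16 reads per library, and the medians of all tested genes by bin of GC content run from 0.13 to −0.21 in the 4 h panel with all libraries.

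The effect of copanlisib was compared between times as the difference of the log2 fold changes. Between 4 and 8 h the effect differed for 9 genes and between 4 and 12 h for 11, where it differed for 19.1% and 16.7% of all tested genes. Both differences share the 4 h libraries. MRPL3 had a difference, 8 h minus 4 h, of −0.39 ± 0.10 (adjusted p = 0.0085), MRPL42 of −0.33 ± 0.073 (0.0043) and MRPL55 of 0.41 ± 0.13 (0.026). With the GC correction these were −0.21 (0.033) for MRPL3, −0.09 (0.37) for MRPL42 and 0.12 (0.47) for MRPL55. In that fit 2 of the 9 genes, MRPL3 and MRPS15, and 2 of the 11, MRPL36 and MRPS15, kept their call, and 5 and 4 other genes passed, where 7.87% and 13.4% of all tested genes did. With replicate 3 as the only copanlisib library at 4 h, 0 of the 79 genes passed in edgeR for either difference, with 8 and 7 at an unadjusted p under 0.05, against 2.4% and 5.29% of all genes tested that passed. Leaving out 1 library at a time gave 4 to 31 genes between 4 and 8 h and 2 to 26 between 4 and 12 h, both highest counts without copanlisib replicate 3 of 4 h (against 38.6% and 35.1% of all tested genes). The lowest were without copanlisib replicate 1 or 2 of 4 h for the first difference (against 10.8% and 10%) and without replicate 2 of 4 h for the second (against 9.71%). Between 8 and 12 h 0 of the 79 genes passed by edgeR, DESeq2 or limma-voom, and 0 had an unadjusted p under 0.05 in any of them, where 0.0558% of all tested genes passed in edgeR.

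Levels also moved with time, for a smaller share of the set than of all tested genes. Between 4 and 12 h, 39.2% of the 79 genes were called in either direction in DMSO and 48.1% with copanlisib. Over all tested genes, the shares were 48.6% and 51.9%. In DMSO at 12 h against 4 h, 22 of the 79 genes rose and 9 fell, against 23.2% and 25.4% of all tested genes. With copanlisib at 12 h against 4 h, 26 rose and 12 fell, against 25.6% and 26.3%, and with replicate 3 only at 4 h 3 fell, against 18.1%. The 26 became 17 without copanlisib replicate 1 of 4 h or of 12 h, against 22% and 21.8% of all tested genes. The 9 that fell in DMSO became 14 without copanlisib replicate 3 of 4 h, through the shared fit, against 28.2%. In DMSO, MRPL48 rose by 0.44 ± 0.088 (adjusted p = 0.00018), MRPL53 by 0.49 ± 0.17 (0.024) and MRPS28 by 0.42 ± 0.18 (0.048). The 12 h and 4 h libraries overlapped for MRPL53 and MRPS28, and in DESeq2 neither was called (adjusted p = 0.053 and 0.06). With the GC correction MRPS28 was not called either (0.051). Both have low counts and an overlapping gene. MRPS17 fell by 0.69 ± 0.11 (adjusted p = 6.5e-06), MRPL1 by 0.41 ± 0.11 (0.0022) and MRPS2 by 0.55 ± 0.063 (5.5e-08). MRPS2, a small subunit protein, had 68.4, 62.4 and 64 CPM in the 4 h DMSO libraries, 47.5, 47.6 and 44.6 in those of 8 h and 45, 43.4 and 44.1 in those of 12 h.

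Counts are given next for cytosolic ribosomes, the respiratory chain and the mRNAs that the mitochondrial ribosome translates. The counts of each list below stand beside 20.7%, 18.3% and 16.5% of all tested genes that fell at the 3 times and 17.7%, 14.8% and 13.8% that rose. Of 85 tested cytosolic ribosomal protein genes, 28 fell and 6 rose at 4 h, 5 fell and 2 rose at 8 h, and 5 fell and 19 rose at 12 h (median log2 fold changes −0.052, 0.052 and 0.087). Of 79 nuclear-encoded subunits of the respiratory chain and ATP synthase, 24 fell and 6 rose at 4 h, 5 fell and 2 rose at 8 h, and 4 fell and 5 rose at 12 h (median log2 fold changes −0.052, −0.016 and 0.006). In the 4 h fit with replicate 3 only, 5 of the cytosolic genes fell and 0 rose, and 0 of the respiratory chain genes fell and 2 rose, where 13.4% of all genes tested fell and 8.86% rose. Of the 13 mRNAs of the mitochondrial genome, 12 rose at 4 h (median 0.30), and 1, MT-ND5, with replicate 3 only (median 0.053). At 8 h 0 of the 13 were called by edgeR, DESeq2 or limma-voom, with 0 at an unadjusted p under 0.05. At 12 h 0 were called by these tools, with 1, 0 and 1 at an unadjusted p under 0.05, though 2 were called in edgeR with copanlisib replicates 1 and 2 of 4 h left out of the shared fit. The large subunit rRNA, MT-RNR2, rose by 0.29 at 4 h (0.00044; with replicate 3 only 0.037, 0.65) and by 0.19 ± 0.06 at 12 h (adjusted p = 0.015). Differences between these lists and the mitochondrial ribosomal protein genes were not tested.

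**Figure D5:**
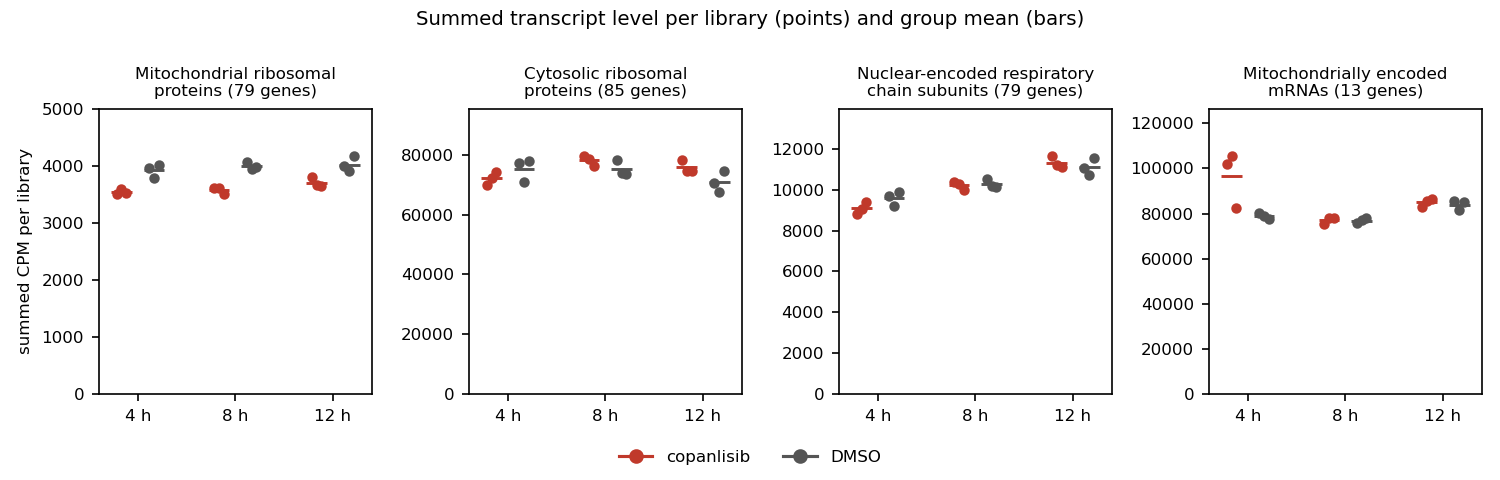
Summed CPM per library (points, vertical axis) and group mean (bars) at 4, 8 and 12 h, copanlisib left of DMSO, for 4 gene sets. The mitochondrial ribosomal protein genes lie between 3509 and 3819 with copanlisib and between 3793 and 4181 with DMSO, with no overlap within a time, and the mitochondrially encoded mRNAs are highest at 4 h in copanlisib replicates 1 and 2.

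Genes that build or serve the mitochondrial ribosome were lower in part. Of 25 assembly factors, 14 fell and 3 rose at 4 h, 11 fell and 3 rose at 8 h, and 8 fell and 4 rose at 12 h (median log2 fold changes −0.18, −0.15 and −0.11). The 4 h counts with replicate 3 only were 10 that fell and 2 that rose (median −0.18). MRM1, which methylates the large subunit rRNA, averaged 17.1 CPM with copanlisib and 24.4 CPM with DMSO at 8 h, and fell by 0.85, 0.51 and 0.57 at the 3 times (adjusted p = 1.8e-08, 2.4e-05 and 2.4e-05). MPV17L2 fell by 0.78, 0.37 and 0.28, MTERF3 by 0.28, 0.45 and 0.41, and FASTKD2, of the mitochondrial RNA granules, by 0.24, 0.45 and 0.43. Values at 4 h with replicate 3 only were −0.66 for MRM1, −0.60 for MPV17L2, −0.43 for MTERF3 and −0.41 for FASTKD2 (adjusted p = 2.1e-06, 8.9e-06, 6.7e-05 and 1.4e-05). The GTPase gene NOA1 rose by 0.22, 0.16 and 0.33, its 4 h call ending with replicate 3 only (adjusted p = 0.077). Of 4 ribosomal proteins without MRP names, GADD45GIP1, CHCHD1 and AURKAIP1 fell at 4 h, by 0.44, 0.25 and 0.45, and PTCD3 at 8 h, by 0.21. With replicate 3 only, GADD45GIP1 and CHCHD1 were not called at 4 h (adjusted p = 0.15 and 0.14), and AURKAIP1 was at −0.19 (0.03).

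Of 15 translation factors, 3 fell and 4 rose at 4 h, 6 fell and 1 rose at 8 h, and 4 fell and 1 rose at 12 h (median log2 fold changes 0.0077, −0.14 and −0.10). At 4 h with replicate 3 only, 3 fell and 1 rose (median −0.082). The elongation factor gene GFM1 averaged 58.6 CPM with copanlisib and 85.8 CPM with DMSO at 8 h, and fell by 0.18, 0.55 and 0.36 at the 3 times (adjusted p = 0.012, 1.3e-08 and 9.9e-06). TUFM, which delivers tRNAs to the ribosome, fell by 0.36, 0.23 and 0.30, and OXA1L, which inserts new chains into the inner membrane, rose by 0.11, 0.13 and 0.14. Of 20 mitochondrial aminoacyl-tRNA synthetase and tRNA amidotransferase genes, 8 fell and 2 rose at 4 h, 8 fell and 2 rose at 8 h, and 8 fell and 2 rose at 12 h (median log2 fold changes −0.14, −0.15 and −0.13). The 4 h counts with replicate 3 only were 6 that fell and 2 that rose (median −0.19). The methionyl-tRNA synthetase gene MARS2 averaged 23.3 CPM with copanlisib and 51.3 CPM with DMSO at 4 h, and fell by 1.14, 0.73 and 0.50 (adjusted p = 3.7e-12, 1.3e-08 and 7.5e-06). The histidyl-tRNA synthetase gene HARS2 rose by 0.17, 0.21 and 0.35. Values at 4 h with replicate 3 only were −0.31 for GFM1, −0.17 for TUFM, 0.14 for OXA1L, −0.97 for MARS2 and 0.21 for HARS2 (adjusted p = 0.00029, 0.018, 0.02, 3.7e-13 and 0.031).

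Of 10 genes of mitochondrial transcription and DNA maintenance, 3 fell and 1 rose at 4 h, 4 fell and 0 rose at 8 h, and 3 fell and 0 rose at 12 h (median log2 fold changes −0.071, −0.11 and −0.13). At 4 h with replicate 3 only, 4 fell and 0 rose (median −0.13). The helicase gene TWNK fell by 0.69, 0.45 and 0.45 at the 3 times (adjusted p = 3.7e-10, 1.2e-06 and 2.6e-06), and TFAM, which packages mitochondrial DNA, by 0.39 at 8 h and 0.18 at 12 h. Of 10 regulators of mitochondrial gene programmes, 7 fell and 1 rose at 4 h, 4 fell and 0 rose at 8 h, and 4 fell and 0 rose at 12 h (median log2 fold changes −0.23, −0.16 and −0.089). The 4 h counts with replicate 3 only were 7 that fell and 0 that rose (median −0.29). PPRC1, a coactivator of the PGC-1 family, averaged 53.3 CPM with copanlisib and 96.9 CPM with DMSO at 4 h, and fell by 0.86, 0.63 and 0.48 (adjusted p = 3.4e-11, 1.2e-08 and 1.6e-06). MYC fell by 0.70, 0.69 and 0.60. NRF1 fell by 0.33 at 4 h alone, YY1 was not called (values from −0.011 to 0.091), and GABPA rose by 0.21 at 4 h and fell by 0.22 at 12 h, with no call at 4 h with replicate 3 only (adjusted p = 0.33). For replicate 3 only, the 4 h values of TWNK, PPRC1, MYC and NRF1 were −0.62, −0.74, −0.66 and −0.30 (adjusted p = 5e-09, 5.4e-12, 1e-13 and 0.025).

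A protein-coding partner that starts in the opposite direction within 1000 bases was found for 19 of the 79 genes (24.1%), against 11.7% of 12704 tested protein-coding genes. MRPL46 and MRPS11, of the large and the small subunit, start 34 bases apart on chromosome 15. Both fell at 4 h, by 0.32 and 0.21 (adjusted p = 0.03 and 0.01), and at 8 h MRPL46 fell by 0.30 (0.041) while MRPS11 was at 0.01 without a call (0.92). MRPS11 was at −0.24 at 4 h with replicate 3 only (0.034). The calls of MRPL46 at 4 and 8 h ended in DESeq2 (0.055 and 0.07) and without the filter on low counts (0.059 and 0.096). The 4 h call of MRPL46 also ended with the 6 libraries of 4 h alone (0.11), with replicate 3 only (−0.26, adjusted p = 0.27) and without copanlisib replicate 2 (0.14) or DMSO replicate 2 or 3 (0.095 and 0.19). Its 8 h call ended without copanlisib replicate 1 or 2 of 8 h (0.2 and 0.076), any 1 of DMSO replicates 1, 2 and 3 of 8 h (0.098, 0.081 and 0.094), or DMSO replicate 2 of 4 h or 12 h (0.052 and 0.053). MRPL18 and TCP1, a subunit of the cytosolic chaperonin, both fell at 8 h, by 0.28 and 0.33 (adjusted p = 0.00048 and 4.7e-07), and at 12 h, by 0.20 and 0.32 (0.0095 and 1e-06). MRPL47 fell at all 3 times. NDUFB5, a subunit of complex I that starts 36 bases away, was at 0.21, 0.12 and 0.13 (adjusted p = 0.003, 0.083 and 0.065). The 4 h value of NDUFB5 includes copanlisib replicates 1 and 2, which differed from the rest, and is not given with replicate 3 only. MRPL43 was called at no time, while its partner TWNK fell at all 3.

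The 30 genes with the ETS letters in a promoter window had median log2 fold changes of −0.10, −0.16 and −0.10 at the 3 times, with 10, 12 and 9 called lower. The 40 without had −0.10, −0.15 and −0.12, with 16, 17 and 12 lower. The 13 genes with the YY1 letters had −0.19, −0.18 and −0.10, and the 57 without had −0.09, −0.15 and −0.12. Of these, 4, 5 and 3 with the letters and 22, 24 and 18 without were lower. The 14 genes with the NRF1 match had medians of −0.10, −0.06 and −0.07, and 5, 5 and 2 were called lower. The 56 without it had −0.10, −0.16 and −0.12, and 21, 24 and 19 were lower. The 9 genes with the E-box had medians of −0.12, −0.04 and −0.03, and 4, 2 and 0 were called lower. The 61 without it had −0.10, −0.16 and −0.12, and 22, 27 and 21 were lower. The 43 genes with the GC box had medians of −0.10, −0.14 and −0.08, and 15, 16 and 12 were called lower. The 27 without it had −0.10, −0.19 and −0.12, and 11, 13 and 9 were lower. The TATA box and TGACGTCA stood in windows of 3 genes and 1 gene. The numbers called lower in each motif group stand beside 20.7%, 18.3% and 16.5% of all tested genes at the 3 times. Those at 4 h hold all 3 copanlisib libraries and are not given with replicate 3 only. The values by motif are descriptions without a test.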

How the data were processed

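RNA sequencing reads of 18 libraries were aligned with STAR 2.5.2b to build hg38 after CASAVA 1.7, per the submitters' processing notes. The authors deposited raw read counts per gene in 3 columns, 1 that ignores strand and 1 per strand. No source used here gives the annotation. The labels' extract protocol speaks of retinas although the samples are a cell line. The library kit named in the labels does not mark strand, yet 94.3% to 95.3% of the reads counted by strand lay in 1 of the strand columns, which was used here. The 4 summary lines per table, such as unmapped reads, stayed out of library sizes and tests. Of 60483 identifiers, 56321 were named from a gene name table and 432 from GENCODE, and 3730 had no name.

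Counts were analysed in edgeR 4.0.16 (R 4.3.3). Genes were kept by filterByExpr (16122 of 35239 with a read), scaled by TMM and fitted with 1 quasi-likelihood model over all 6 groups, so that the groups share 1 estimate of the spread. P-values were adjusted by Benjamini-Hochberg over all 16122 genes, with a threshold of 0.05. CPM are counts scaled to a fixed total by the TMM-scaled library size, and TPM divide by transcript length. The script was tested on simulated data. Depth was 13587017 to 25566761 gene reads per library. Alternatives were DESeq2 1.42.0, limma-voom (limma 3.58.1), DESeq2 size factors, library sizes without the mitochondrial genome, no filter, counts without strand, a replicate block, a GC correction, a threshold of 0.01, the 6 libraries of a time alone, replicate 3 as the only copanlisib library at 4 h, and each library left out.

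The members and gene lists were chosen with earlier results of these data known. Named genes were those with the largest called changes at each time, between times and over time in DMSO, and the most and least abundant per length. A fixed set of members with roles of their own and some members whose values show a group of the gene lists were added. Other genes in the text, such as MRPS16, MRPL18, MRPS11 and MRPL43, lie outside this choice and outside the tally of called values of named genes.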

Additional observations from a re-analysis of the deposited data

Results flagged for a closer look

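The effect of copanlisib differed between times for the genes below, by edgeR's test of the difference of the log2 fold changes, adjusted over all tested genes. They are 11.4% of the 79 genes for 8 h against 4 h and 13.9% for 12 h against 4 h. Over all tested genes the shares were larger, at 19.1% and 16.7%. The value named corrected is the difference with the GC correction. For the effect at 8 h minus that at 4 h, the difference was above 0 for MRPL55 (0.41, corrected 0.12), MRPS26 (0.37, corrected 0.013), MRPL28 (0.36, corrected 0.05) and MRPS2 (0.29, corrected 0.032). It was below 0 for MRPL3 (−0.39, corrected −0.21), MRPL42 (−0.33, corrected −0.09), MRPL35 (−0.31, corrected −0.10), MRPS35 (−0.28, corrected −0.087) and MRPS15 (−0.22, corrected −0.28). For the effect at 12 h minus that at 4 h, it was above 0 for MRPL41 (0.64, corrected 0.15), MRPL55 (0.42, corrected 0.16), MRPL36 (0.40, corrected 0.41), MRPL28 (0.37, corrected 0.10), MRPS26 (0.37, corrected 0.071) and MRPS2 (0.26, corrected 0.033). It was below 0 for MRPL48 (−0.37, corrected −0.28), MRPS31 (−0.32, corrected −0.14), MRPL3 (−0.29, corrected −0.14), MRPL35 (−0.23, corrected −0.053) and MRPS15 (−0.23, corrected −0.29). With the GC correction, 2 of the 9 genes of the first comparison (MRPL3 and MRPS15) and 2 of the 11 of the second (MRPL36 and MRPS15) kept their call, and 7 and 9 lost it. With replicate 3 as the only copanlisib library at 4 h, 0 of the 79 genes passed in either comparison by edgeR, with 8 and 7 at an unadjusted p under 0.05.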

How the results depend on the processing

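Of the 58 called values of named mitochondrial ribosomal protein genes at the 3 times, 34 kept their call and direction in every alternative and 0 changed sign. Of them, 15 were lost at an adjusted p under 0.01, 8 with the GC correction, 8 with replicate 3 as the only copanlisib library at 4 h, 5 without a filter on low counts, 4 with the 6 libraries of a time alone, 3 in DESeq2, 1 with counts without strand, and 0 in limma-voom, with DESeq2 size factors or with library sizes without the mitochondrial genome. The causes were not tested. The numbers lower, 28, 33 and 24 at 4, 8 and 12 h, ranged over 22 to 32, 27 to 40 and 14 to 31 when 1 library was left out, and the last was 14 at an adjusted p under 0.01. The 2 higher at 4 h became 1 without the filter, 0 with that time alone, 0 with replicate 3 only, 0 under 0.01 and 0 to 7 without 1 library. The 1 higher at 12 h became 3 with the GC correction, and 3 with the replicate block added. The medians became −0.15 at 4 h with replicate 3 only and −0.14 to −0.10 at 12 h without 1 library. The 9 effects that differed between 8 and 4 h became 7 with the GC correction, of which 2 are among the 9, 0 with replicate 3 only, 3 under 0.01 and 4 to 31 without 1 library. The 11 between 12 and 4 h became 6 with the GC correction, of which 2 are among the 11, 6 with the replicate block added, 0 with replicate 3 only, 2 under 0.01 and 2 to 26 without 1 library. In DMSO at 12 h against 4 h, the 9 lower became 14 with the replicate block and GC correction, 14 with replicate 3 only and 7 to 14 without 1 library, and the 22 higher became 14 under 0.01. With copanlisib at 12 h against 4 h, the 12 lower became 3 with replicate 3 only, and the 26 higher were 17 to 30 without 1 library.

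Replicate numbers were not treated as pairs in the main fit. Same-numbered copanlisib and DMSO libraries of a time had correlations of deviations from −0.195 to 0.397, and differently numbered ones from −0.403 to 0.219. Deviations from a mean of 3 libraries depend on each other, so these values cannot settle whether the samples were paired. With the replicate block, 29, 35 and 24 genes were lower at the 3 times. With replicate 3 as the only copanlisib library at 4 h, that library is assumed to vary like the other groups. MRPS24, MRPL38 and MRPL53 had 2 to 80 reads per library, and small changes of such genes were not detectable at this depth.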
